A study of Mus musculus with 4 samples.

Results

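Fcrls, Tmem119, Cx3cr1, Cx3cl1, P2ry12, Gpr34 and Olfml3 were described across the cells of 4 mouse liver libraries. They are 7 of the 31053 genes counted, taken by their symbols, and all 7 had at least 1 UMI (unique molecular identifier, 1 counted RNA molecule) in every library. The genes were chosen by their measured levels in macrophages of these same libraries, so their levels and the differences between libraries are a description with no test. The study addressed how cells with MEF2D, a transcription factor of the myocyte enhancer family, shape resident macrophages on the way to liver cancer. It holds 1 library each of premalignant liver labelled Mef2d KO, premalignant liver labelled Mef2d WT, early hepatocellular carcinoma (eHCC) labelled KO and eHCC labelled WT. All 4 were single-cell 5' libraries from mouse tissue dissociated with an enzyme kit. The labels do not give the strain, age, tumour model, the cell type that lost Mef2d, the exons removed or the number of animals per library.

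With 1 library per group there is no replicate, so no p-value is given and intervals (95%) cover counting error only. The libraries held 56458438 to 118594527 UMIs, and 8382 to 12786 cells each passed the filters, 39427 in all, with a median of 4303 to 8316 UMIs per cell. Mef2d itself was measured at 100.6 CPM (UMIs per 1000000 UMIs of the cells described) in the premalignant library labelled KO and 71.3 CPM in the premalignant library labelled WT. In eHCC it was 96.4 CPM in the library labelled KO and 61.3 CPM in the library labelled WT. Mef2d RNA was thus higher, not lower, in both libraries labelled KO, which goes against the label, and every direction below is between libraries as they are labelled. Reads outside removed exons would still be counted, so this value neither checks nor replaces the label. Between 27 and 46 cell barcodes were shared by any pair of libraries, and 1 of the 1021 monocytes and macrophages of the eHCC library labelled KO had a barcode also present in the eHCC library labelled WT. No Fcrls UMI lay in that cell.

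Microglia are the resident macrophages of the brain, and in steady state they are told from other macrophages by a small set of surface and secreted proteins that includes most of these genes. Cx3cr1 is the receptor for fractalkine, which Cx3cl1 encodes. Fractalkine is made as a membrane-bound adhesion molecule and is released by the proteases ADAM10 and ADAM17. In the liver Cx3cr1 is known from monocytes and from macrophages that recently came from monocytes, while mature Kupffer cells, the resident macrophages of the sinusoids, carry little of it. P2ry12 is a purinergic receptor for ADP, Gpr34 a receptor for lysophosphatidylserine, Fcrls an Fc receptor-like scavenger receptor of mice, Tmem119 a membrane protein also known from bone and stromal cells, and Olfml3 a secreted olfactomedin-domain protein that is made by stromal cells too.

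On GRCm38, Fcrls (ENSMUSG00000015852) lies on chr3:87250758-87263738, minus strand, and Olfml3 (ENSMUSG00000027848) on chr3:103722222-103738001, minus strand. Tmem119 (ENSMUSG00000054675) lies on chr5:113793729-113800516, minus strand, and Cx3cl1 (ENSMUSG00000031778) on chr8:94772009-94782427, plus strand. None of these 4 overlaps another annotated gene. P2ry12 (ENSMUSG00000036353), chr3:59216272-59262871, minus strand, lies within Med12l on the opposite strand and shares 9 exonic bases with it. Gpr34 (ENSMUSG00000040229), chrX:13632089-13640858, plus strand, lies within Cask on the opposite strand and shares no exonic base with it. Cx3cr1 (ENSMUSG00000052336), chr9:119901616-120069879, minus strand, has a long annotated 5' part that spans 9 other genes and shares 78 exonic bases with the antisense gene Gm33858 alone. Whether counting used the strand is not stated, so reads in those shared bases could be counted to either gene.

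Promoters of 5 of the 7 genes (250 bases before to 50 after the start, RefSeq, GRCm38.p6) were searched on both strands for binding motifs of macrophage factors, because 6 of the genes differed together between the eHCC libraries. The 5 were Fcrls, Cx3cr1, P2ry12 and Olfml3, which are among those 6, and Cx3cl1, which is not. The PU.1 motif GAGGAAG was present in 13.6% of all 32851 promoters and in 2 of the 5, Fcrls and Cx3cl1. The RUNX motif TGTGGTT was present in 5.27% of promoters and in 1 of the 5, Fcrls. The MEF2 motif was in 3.19% of promoters, the AP-1 motif TGAGTCA in 5.20%, the SMAD motif GTCTAGAC in 0.213% and the kappaB motif in 0.155%, and none of the 5 held one. The motifs do not overlap in these promoters. The 3 matches are shown as the 27 bases around each, 5' to 3' on the gene's strand, with the motif in capitals. Where the match is on the opposite strand, the capitals are its reverse complement.
Fcrls, PU.1, 144 bases before the start, chr3:87263652-87263678, minus strand: agtctgtaaaGAGGAAGgacgtttgct
Fcrls, RUNX, 42 bases before the start, match on the opposite strand, chr3:87263550-87263576, minus strand: atccctgctgAACCACAgtgttctatc
Cx3cl1, PU.1, 67 bases before the start, match on the opposite strand, chr8:94772103-94772129, plus strand: gctacaggctCTTCCTCtcccctccca
The starts are those of RefSeq, and for Fcrls, Cx3cl1 and Cx3cr1 the gene as annotated by GENCODE (coordinates above) begins further upstream. The 3 matches therefore lie inside the GENCODE genes, and 136 of the 250 bases before the RefSeq start of Fcrls and 171 of those of Cx3cl1 are annotated exon. For Cx3cr1, which had no match, all 250 of these bases are annotated exon. A match is a description of the letters and not a bound site.

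Monocytes and macrophages were found by clustering all cells without the 7 genes. They numbered 208 cells in the premalignant library labelled KO, 516 in the premalignant library labelled WT, 1021 in the eHCC library labelled KO and 3425 in the eHCC library labelled WT, or 2.37%, 4.04%, 12.2% and 36.1% of kept cells. Their median depth was 8205, 6478, 12786 and 15637 UMIs in the same order. The cells were of different kinds in each library. Kupffer-like cells were 303 of the 516 in the premalignant library labelled WT and 30 of the 208 in the premalignant library labelled KO. In eHCC, macrophage-like cells were 1729 in the library labelled WT, mostly of clusters led by C1qa, Apoe, Ms4a7 and Trem2, and 144 in the library labelled KO, of which 136 were in cluster P9, led by Ccl8, Cxcl9 and Aif1. The 14 macrophage markers were all detected in both and summed to 101125.8 and 32167.1 CPM. Classical monocyte-like cells were 1038 and 658 under the WT and KO labels. Lipid-associated macrophage-like cells (Gpnmb, Spp1) were 433 in the eHCC library labelled WT and 1 in the eHCC library labelled KO. These counts depend on the clustering. With each library clustered on its own, 49 cells of the eHCC library labelled KO formed a lipid-associated macrophage-like cluster. No cluster of the eHCC library labelled WT was then given that name. Clusters named macrophage-like then held 194 and 146 cells under the KO label and 725, 402 and 312 under the WT label. A level over all these cells therefore moves both with what a cell holds and with which cells were there, and levels by class and by cluster follow the totals.

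Fcrls, Tmem119, Olfml3 and Gpr34 were abundant in phagocytes of the eHCC library labelled WT and scarce in those of the other 3 libraries. Fcrls was counted 10 times in the premalignant library labelled KO, 1 time in the premalignant library labelled WT, 47 times in the eHCC library labelled KO and 16460 times in the eHCC library labelled WT. These counts were 6.49, 0.227, 3.73 and 299.8 CPM. All 10 UMIs of the premalignant library labelled KO lay in 1 cell. In the eHCC library labelled WT, 1808 cells (52.8%) held Fcrls, against 13 cells (1.27%) in the eHCC library labelled KO. After each cell was thinned to 1000 UMIs, which kept 3389 of 3425 and 982 of 1021 cells, the shares with Fcrls were 19.1% and 0.407%. Fcrls was 80.3-fold lower in the eHCC library labelled KO than in the eHCC library labelled WT (log2 -6.33, interval -6.77 to -5.92).

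Tmem119 was at 3.25 CPM (5 UMIs), 5.89 CPM (26), 5.16 CPM (65) and 171.1 CPM (9392) in the premalignant KO, premalignant WT, eHCC KO and eHCC WT libraries, in that order of labels. The first 3 libraries lay close together and the fourth far above them. Olfml3 was at 7.79 CPM (12 UMIs), 8.38 CPM (37), 6.28 CPM (79) and 126.6 CPM (6947). Gpr34 was at 1.95 CPM (3 UMIs), 1.36 CPM (6), 5.16 CPM (65) and 69.2 CPM (3797). For these 3 genes, as for Fcrls, the level in the eHCC library labelled KO was at the level of premalignant liver or a few CPM from it. Between the eHCC libraries Tmem119 was 33.1-fold lower under the KO label (log2 -5.05), Olfml3 20.2-fold lower (log2 -4.33) and Gpr34 13.4-fold lower (log2 -3.74).

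The receptors Cx3cr1 and P2ry12 had another pattern. Cx3cr1 was at 238.9 CPM (368 UMIs), 118.2 CPM (522), 80.1 CPM (1008) and 406.8 CPM (22329) in the same order, so it was present in every library and lowest in the eHCC library labelled KO. P2ry12 was at 11.04 CPM (17 UMIs), 43.7 CPM (193), 11.6 CPM (146) and 60.9 CPM (3343). The P2ry12 levels of both libraries labelled KO were alike, and both libraries labelled WT were higher. Most P2ry12 UMIs of the premalignant library labelled WT lay in Kupffer-like cells, 303 cells there against 30 under the KO label. Within Kupffer-like cells the premalignant P2ry12 levels did not differ beyond counting error (below). Between the eHCC libraries Cx3cr1 was 5.08-fold lower under the KO label (log2 -2.35, interval -2.44 to -2.25) and P2ry12 5.25-fold lower (log2 -2.39). Cx3cl1, the ligand, was nearly absent from phagocytes, with 0, 0, 2 and 7 UMIs.

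**Figure D1:**
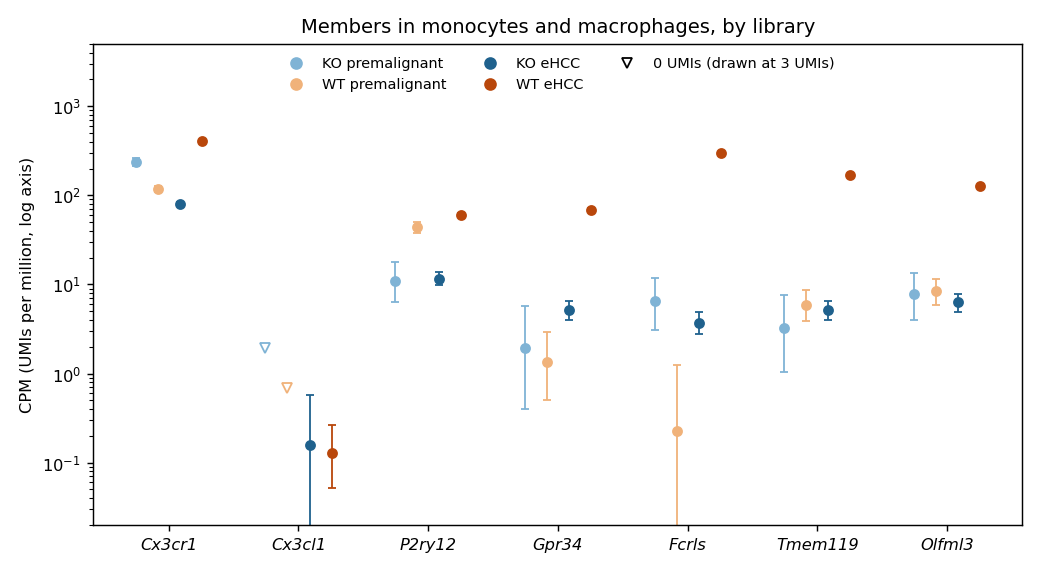
Levels of the 7 genes in monocytes and macrophages, in CPM on a log axis. Each point is 1 library, bars are 95% counting intervals, and open triangles mark 0 UMIs drawn at 3 UMIs. In Fcrls the eHCC library labelled WT stands at 299.8 CPM and the other 3 libraries at 6.49 CPM or below, while Cx3cr1 is at 80.1 CPM or above in all 4.

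A difference was counted where it was at least 2-fold and its counting interval left out 0, among genes with at least 20 UMIs in both libraries together. Between the eHCC libraries, 9.99% of 12720 genes were lower under the KO label by this rule and 7.28% higher. Of the 6 members with enough UMIs (all but Cx3cl1), 6 were lower and 0 higher, and the genes were chosen for this. In premalignant liver 4 members had enough UMIs, and 5.32% of 9969 genes were higher and 9.56% lower under the KO label. There Cx3cr1 was the 1 member higher (2.02-fold) and P2ry12 the 1 member lower (3.96-fold). Kupffer-like cells were 30 and 303 of the phagocytes compared. Without Kupffer-like cells Cx3cr1 was at 258.7 CPM under the KO label and 304.9 CPM under the WT label, a log2 ratio of -0.24, so its direction turned. P2ry12 then had 5 and 13 UMIs, too few for the rule, and a log2 ratio of -1.13.

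From premalignant liver to eHCC, the libraries labelled WT and KO did not move alike, and that difference was not tested. Between the libraries labelled WT, 5.31% of 12704 genes were higher in eHCC and 15% lower. Of the 6 members 5 were higher and 0 lower: Gpr34 50.9-fold (log2 5.67), Tmem119 29.1-fold (4.86), Olfml3 15.1-fold (3.92), Cx3cr1 3.44-fold (1.78) and Fcrls, whose ratio rests on 1 premalignant UMI (log2 10.37, interval 7.89 to 15.67). Without Kupffer-like cells Cx3cr1 was 1.34-fold higher (log2 0.42), under the 2-fold rule, and in clusters shared by both libraries its log2 ratio was -0.16. P2ry12 was 1.39-fold higher (log2 0.48), and 7.88-fold higher once Kupffer-like cells were left out. Between the libraries labelled KO, 3.83% of 10498 genes were higher in eHCC and 10.5% lower. None of the 6 members was higher and 1 was lower, Cx3cr1 (2.98-fold). Fcrls had a log2 ratio of -0.80 there (interval -1.80 to 0.35), and the intervals of Tmem119, P2ry12, Gpr34 and Olfml3 included 0.

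Free RNA from broken cells gives some UMIs to every droplet. T-like and B-like cells, which are not known to use Fcrls, served as a measure of it. In the eHCC library labelled WT, Fcrls was found in 4.15% of T-like cells (median 6351 UMIs) and 4.07% of B-like cells (median 4574 UMIs), at 6.13 and 8.95 CPM. In the eHCC library labelled KO these shares were 0.140% (median 6601 UMIs) and 0. The 1.27% of phagocytes with Fcrls in the eHCC library labelled KO lay above that library's own background but were deeper cells. Tmem119 was in 1.92% of T-like cells of the eHCC library labelled WT, P2ry12 in 1.26%, Olfml3 in 4.65%, Gpr34 in 7.62% and Cx3cr1 in 10.0%. The phagocytes of the same library stood far above them, with 60.5% for Tmem119, 51.7% for P2ry12, 56.8% for Olfml3, 40.8% for Gpr34 and 84.3% for Cx3cr1. Gpr34 and Cx3cr1 were also found in T or NK cells of the other libraries (below). For both genes the T-like share need not be free RNA alone.

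Within the eHCC library labelled WT, the 6 genes were higher in macrophage-like cells than in lipid-associated macrophage-like or classical monocyte-like cells. Fcrls was at 579.6 CPM there and in 81.0% of cells, Tmem119 at 299.4 CPM in 83.7%, and Olfml3 at 220.5 CPM in 82.4%. Cx3cr1 was at 610.3 CPM in 90.8% of them, Gpr34 at 133.1 CPM in 67.0% and P2ry12 at 82.6 CPM in 58.2%. Lipid-associated macrophage-like cells of the same library were lower for all 6, with 85.3 CPM of Fcrls, 21.8 CPM of Tmem119, 132 CPM of Cx3cr1, 32.6 CPM of P2ry12, 9.22 CPM of Gpr34 and 58.1 CPM of Olfml3. Classical monocyte-like cells had 33.5 CPM of Fcrls, 86.7 CPM of Tmem119 and 302.5 CPM of Cx3cr1. Macrophage-like and lipid-associated cells thus differed more in Gpr34 and Tmem119 than in P2ry12.

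The same classes were compared between the eHCC libraries. Among macrophage-like cells 11.5% of 11256 genes were lower under the KO label by the 2-fold rule, and 6 of 6 members were. Fcrls was at 22.9 CPM (9 UMIs in 144 cells) against 579.6 CPM, 25.3-fold lower, and Tmem119 at 17.8 CPM against 299.4 CPM, 16.8-fold lower. Of the 9 Fcrls UMIs, 7 lay in 5 cells of cluster P0 and 2 in the 136 cells of cluster P9. Gpr34 had the smallest difference of the 6 (33.1 against 133.1 CPM, log2 -2.01). The macrophage-like cells of the eHCC library labelled KO were of other clusters (136 of 144 in P9) and shallow, with a median of 1786 UMIs against 15083 under the WT label. Their 7 erythroid markers summed to 19453.9 CPM against 115.6 CPM, and the part of red cell RNA in these ratios was not tested. Clusters P8 and P18, described below, scored highest on the macrophage list but were given no cell type name, so they are not in this class. They held 103 and 48 cells of the eHCC library labelled KO, with cluster medians of 17442.5 and 14557.5 UMIs.

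Among classical monocyte-like cells 7.48% of 10948 genes were lower under the KO label, and 6 of 6 members were. Fcrls was not found in 658 cells of the eHCC library labelled KO, which allows a share of up to 0.456% of cells with a UMI, and had 511 UMIs (33.5 CPM) under the WT label, at least 98.3-fold more. T-like and B-like cells of the library labelled WT held Fcrls too (above). The part of free RNA in this bound was not tested. Olfml3 was at 1.36 against 34.8 CPM (log2 -4.68), Gpr34 at 0.908 against 15.3 CPM (-4.08), Tmem119 at 5.22 against 86.7 CPM (-4.05), P2ry12 at 7.83 against 49.1 CPM (-2.65) and Cx3cr1 at 80.6 against 302.5 CPM (-1.91). The monocytes of the 2 libraries also came from different clusters: mostly P3 and P5 (427 and 215 cells) under the KO label, and mostly P1 and P10 (636 and 255 cells) under the WT label. The 14 macrophage markers, all detected in both, summed to 5805.9 CPM in the former and 17205.4 CPM in the latter. The 7 erythroid markers summed to 5955.9 and 110 CPM (7 and 5 detected), and the 10 neutrophil markers to 222.7 and 711.6 CPM (9 detected in each). The part of these markers in the ratios was not tested. In premalignant liver Cx3cr1 of these cells was at 205.9 CPM (KO label) and 233.7 CPM (WT label), which do not differ beyond counting error.

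In non-classical monocyte-like cells (Ace, Cd300e), a blood monocyte type known for high Cx3cr1, the libraries of a stage did not differ in Cx3cr1 beyond counting error. Cx3cr1 was at 329.8 CPM, 447.0 CPM, 183.4 CPM and 242.3 CPM in the premalignant KO, premalignant WT, eHCC KO and eHCC WT libraries. The eHCC libraries had a log2 ratio of -0.40 (interval -0.98 to 0.20) with 56 and 23 cells. The order was the same in both stages, and both eHCC libraries lay below their premalignant counterparts, by log2 -0.85 under the KO label and -0.88 under the WT label. The other 5 receptors and secreted genes had at most 1 UMI each per library in these cells.

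Kupffer-like cells of premalignant liver (30 cells under the KO label, 303 under the WT label) were the class with P2ry12 but little of the other genes. P2ry12 was at 92.9 CPM (12 UMIs) and 65.8 CPM (180 UMIs), with overlapping intervals (log2 0.50, interval -0.48 to 1.34). Cx3cr1 had 3 and 9 UMIs there (3.29 CPM under the WT label), Olfml3 0 and 17, Tmem119 0 and 2, and Gpr34 1 and 1. Fcrls was not found in either, which allows a share of up to 10% and 0.990% of cells with a UMI.

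Clusters with at least 20 cells in both eHCC libraries allow a comparison within a cluster, though a cluster need not hold 1 kind of cell. Cluster P8 (Ccl8, Mmp12 and Gdf15 among its leading genes, given no cell type name) had 103 cells under the KO label and 151 under the WT label. Here 4.17% of 9169 genes were lower under the KO label, and 2 of 6 members were, Tmem119 (5.29 against 19.2 CPM, log2 -1.86) and Cx3cr1 (78.0 against 192 CPM, log2 -1.30). Fcrls was at 16.3 CPM (37 UMIs in 8 of 103 cells) and 25.7 CPM (71 UMIs in 29 of 151 cells), a log2 ratio of -0.66 (interval -1.27 to -0.06) that misses 2-fold. P2ry12 (log2 -0.83), Gpr34 (-0.57) and Olfml3 (-0.45, interval -0.97 to 0.05) missed it too. Free RNA was not subtracted, and its part in the Fcrls difference was not tested. The cluster held 37 of the 47 Fcrls UMIs found in phagocytes of the eHCC library labelled KO.

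Clusters P9 and P18 gave larger differences. P9, a shallow macrophage-like cluster with a median of 2061 UMIs, had 136 and 122 cells. In P9 5.57% of 3143 genes were lower under the KO label, and 4 of 5 members were (Fcrls, Tmem119, Cx3cr1 and Olfml3). Fcrls had 2 UMIs (6.26 CPM) against 160 UMIs (424 CPM), a log2 ratio of -6.08 with an interval of -9.14 to -4.21. P18 was led by the interferon-induced genes Oasl1, Ifit3 and Rsad2, had 48 and 42 cells, and held 1 marker of type 1 dendritic cells but none of monocytes or macrophages among its top 10 genes. In P18 8.70% of 5494 genes were lower under the KO label, and 6 of 6 members were. Fcrls there had 1 UMI (1.66 CPM) against 327 UMIs (496 CPM), with a log2 interval of -13.54 to -5.74, and Tmem119 had 0 against 220 UMIs, at least 67.2-fold lower. In P9 and P18 the cells of the 2 libraries also differed in other macrophage genes. Over 9 border-associated macrophage genes with enough UMIs the median log2 ratio was -0.88 in P9 and -2.85 in P18, with Apoe lowest in both. Over all tested genes it was 0.02 and 0.06. The part of this in the ratios was not tested. Over all phagocytes without P18 the Fcrls ratio was -6.28 and that of Cx3cr1 -2.29.

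Cx3cr1 could be followed in all 6 clusters shared by the eHCC libraries and was lower under the KO label in each. The levels under the KO and WT labels were 96.3 and 213 CPM in P3 (log2 -1.14), 42.3 and 179 CPM in P5 (-2.08), 78.0 and 192 CPM in P8 (-1.30), 25.02 and 186 CPM in P9 (-2.89) and 21.5 and 476 CPM in P18 (-4.47). In P13, the non-classical cluster, the interval included 0. With only these 6 clusters pooled (985 and 418 cells) the ratio was -1.59 for Cx3cr1 and -5.15 for Fcrls. The 2 pools were not of the same make-up. P3 and P5 gave 427 and 215 of the 985 cells under the KO label, with no Fcrls UMI. Under the WT label they gave 28 and 52 of the 418 cells. The part of this in the pooled ratios was not tested.

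**Figure D2:**
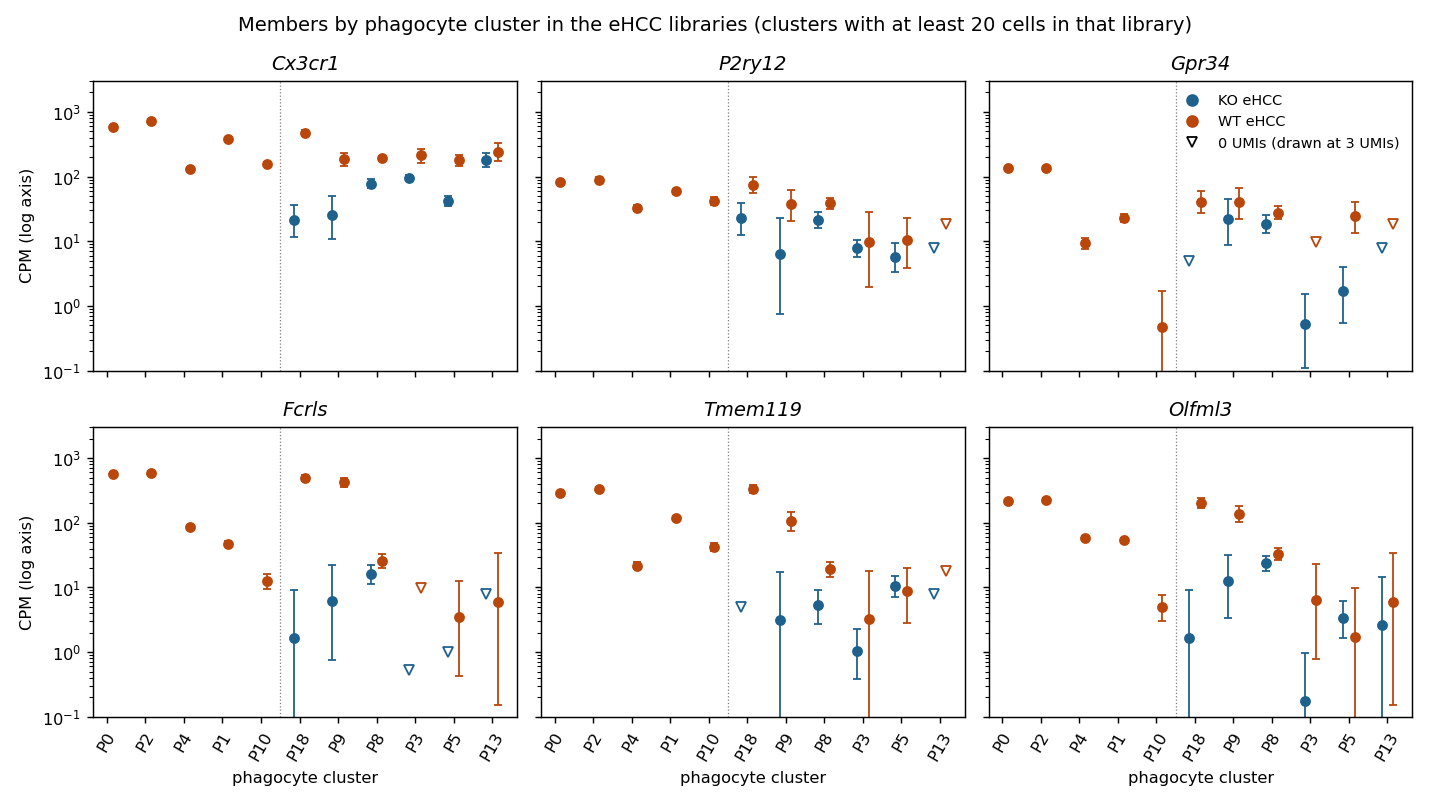
Levels of 6 genes in phagocyte clusters of the eHCC libraries, in CPM on a log axis, with 95% counting intervals and open triangles for 0 UMIs drawn at 3 UMIs. A point is drawn where the library has at least 20 cells of that cluster, and clusters left of the dotted line have them under the WT label only. Both libraries lie close together for Fcrls in P8 (16.3 and 25.7 CPM) and far apart in P9 and P18.

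Among the clusters found almost only under the WT label, levels formed an order that was not the same for every gene. Fcrls was at 597 CPM in P2 and 577 CPM in P0, then 85.3 CPM in P4, 47.7 CPM in P1 and 12.5 CPM in P10. Free RNA was not subtracted, and its part in the lowest of these levels was not tested. Cx3cr1 was at 729 CPM in P2 and 577 CPM in P0, then 378 CPM in P1, 158 CPM in P10 and 132 CPM in P4. The monocyte cluster P1 (Chil3, Ccr2, Thbs1) thus had more Cx3cr1 than the Gpnmb and Spp1 cluster P4 but less Fcrls. Tmem119 followed Cx3cr1 in this, with 121 CPM in P1 and 21.8 CPM in P4, and P2ry12 did so with 58.9 and 32.6 CPM. Olfml3 was nearly level between them, with 53.6 and 58.1 CPM. Gpr34 dropped from 135 CPM in P0 to 23.1 CPM in P1 and 9.22 CPM in P4.

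In premalignant liver a small number of phagocytes already held several of these genes. Only 12 cells of each premalignant library fell into P8, too few for a class, so their values are given as they are. These 12 cells held 4 of the 5 Tmem119 UMIs and 11 of the 12 Olfml3 UMIs of all phagocytes in the premalignant library labelled KO. In the premalignant library labelled WT they held 14 of the 26 Tmem119 UMIs and 17 of the 37 Olfml3 UMIs. Cx3cr1 was at 871 and 668 CPM in them. The 10 Fcrls UMIs in phagocytes of the premalignant library labelled KO were all in 1 of these cells, and the 12 cells of the library labelled WT had none.

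The genes were also counted together in single cells after thinning to 1000 UMIs, which kept 196 of 208 and 500 of 516 phagocytes of the premalignant libraries labelled KO and WT. At least 1 of the 6 (Cx3cl1 left out) was present in 20.9%, 14.4%, 11.2% and 55.7% of phagocytes in the premalignant KO, premalignant WT, eHCC KO and eHCC WT libraries. At least 2 were present in 2.55%, 1.00%, 0.611% and 24.4%, and at least 3 in 1.02%, 0, 0.102% and 8.11%. In T-like cells of the eHCC library labelled WT the shares with at least 1 and at least 2 were 4.18% and 0.106%. Over phagocytes of the eHCC library labelled WT, cells with Fcrls more often held Tmem119 (26.2% against 12.8% of cells without Fcrls) and Olfml3 (22.8% against 9.73%). Within cluster P0 alone the shares were 26.4% and 23.5% for Tmem119 and 24.6% and 19.8% for Olfml3, with overlapping intervals.

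**Figure D3:**
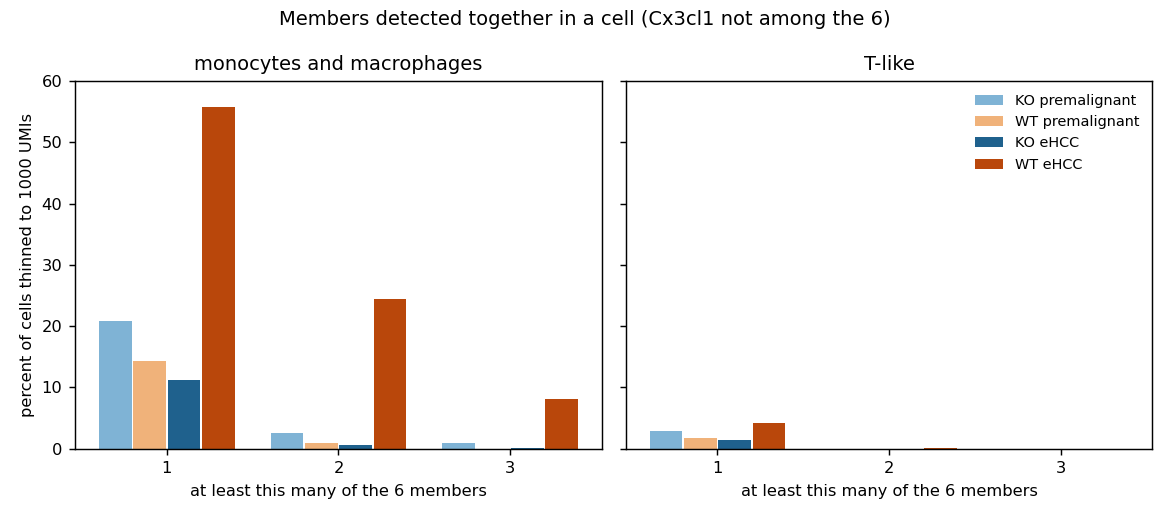
Percent of cells, each thinned to 1000 UMIs, that held at least 1, 2 or 3 of the 6 genes, in monocytes and macrophages and in T-like cells, by library. Among phagocytes of the eHCC library labelled WT 24.4% held at least 2, and in each of the other libraries 2.55% or fewer did.

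Other genes known from homeostatic microglia gave a mixed picture. This list of 40 genes, and the lists that follow, were drawn up with earlier results of these data known. Of 38 genes with enough UMIs in phagocytes of the eHCC libraries, 19 (against 9.99% of all genes) were lower and 3 (against 7.28%) higher under the KO label by the 2-fold rule, with a median log2 ratio of -1.03 against -0.07 over all 12720 genes. Among the lower were Rnase4, a secreted ribonuclease (22.2 against 218.8 CPM, log2 -3.30), Ltc4s, the leukotriene C4 synthase (-3.26), and the sialic acid receptor Cd33 (-2.75). Higher were the crystallin Crybb1 (2.17), the adhesion receptor Adgrg1 (1.92) and Nrros (1.00), which anchors latent TGF-beta. In P8 33 genes of the list had enough UMIs, 1 was lower (Ltc4s, -1.04) and 0 were higher, with a median of -0.18 against -0.10 for all genes tested. Among macrophage-like cells 19 of 36 were lower, against 11.5% of all genes, and 1 higher, with a median of -1.66 against 0.02.

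The name microglia-like was read against the list. Some of its genes were abundant in phagocytes of the eHCC library labelled WT, such as Rnase4 (218.8 CPM), beside Tmem119 in 60.5% and P2ry12 in 51.7% of cells, and others were not. Sall1, the transcription factor that marks them, had 0 UMIs in phagocytes of the eHCC library labelled KO and 1 in those of the eHCC library labelled WT. Slc2a5, a fructose transporter, had 0 and 8 UMIs, and Siglech 9 and 103. These 3 genes, named for being at or near 0, were at 1.88 CPM or less in both libraries. The cells are therefore called here by their clusters and leading genes.

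Genes around the fractalkine receptor had no common direction between the eHCC libraries. The counts of this and the next paragraph, by the same rule, stand beside 7.28% of all genes higher and 9.99% lower under the KO label. Of 9 genes for shedding and adhesion, the protease Adam17 was level (log2 0.01), Adam10 was lower (-1.02), and the integrins Itgb3 (3.33) and Itga4 (1.09) were higher under the KO label. Of 12 other chemokine and chemoattractant receptors, 0 were higher and 3 lower: the scavenging receptor Ackr3 (-3.05), the complement receptor C3ar1 (-1.49) and C5ar2 (-1.18). Of 17 purinergic and related receptors 4 were higher, led by the adenosine receptors Adora2a (2.41) and Adora2b (2.32), and 4 lower: Nt5e, which makes adenosine (-3.03), the P2ry12 relative P2ry13 (-1.88), P2ry6 (-1.75) and Gpr183 (-1.54). Of 9 Fc receptor-like relatives of Fcrls, Fcrl5 (1.63) and Fcgr4 (1.25) were higher and Fcrlb (-3.16) was lower.

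Genes of the TGF-beta axis, which is known to keep the microglial program, were divided. Of 17 with enough UMIs, 4 were higher (Lrrc32 4.37, Tgfb3 2.41, Tgfbr3 2.17, Nrros 1.00) and 4 lower (the receptor Tgfbr1 -1.99, Ski -1.64, Ltbp3 -1.33, Smad6 -1.12), with a median of -0.36. Of 13 genes of border-associated macrophages 2 were higher (Folr2 1.58, Pf4 1.25) and 4 lower (Cbr2 -3.76, Stab1 -2.84, Apoe -2.72, Ms4a7 -1.46). Of 15 adhesion and cytokine-induced genes 6 were higher, with the interferon-induced chemokines Cxcl10 (2.83) and Cxcl9 (2.31) at the top, and 1 lower (Cxcl12, -2.83). Of 6 olfactomedin and BMP-related genes Id3 (1.58) and Bmp2 (1.41) were higher and Olfml2b (-2.39) lower. Itgb3, Lrrc32 and Pf4 are platelet genes too. The 8 platelet markers, all detected in both libraries, summed to 184.6 CPM under the KO label and 77.4 CPM under the WT label, and the 7 erythroid markers to 6841.8 and 124 CPM, and their part in these counts was not tested.

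By likeness of level over 22 pairs of phagocyte cluster and library (Spearman, 9758 genes, pairs sharing libraries and depth), Fcrls was closest to Rtcb (rho 0.90), Slc13a3, Rgs10, Arhgap22 and Spink1. Tmem119 stood at rank 8 in that order, Olfml3 at rank 10 and Gpr34 at rank 14. P2ry12 was at rank 197 and Cx3cr1 at rank 767. Cx3cr1 was closest to Fam53b (0.90), Mef2c (0.89), Ypel3, Lyl1 and Csnk1e. Among the genes closest to P2ry12 were Tmem37 (0.91), its relative P2ry13, Prune2 and Bach2os. Olfml3 was closest to Trem2 (0.93), Tmem119 to Itga6 (0.93) and Gpr34 to Krt8 (0.92). Seen from Olfml3, P2ry12 (rho 0.79, rank 80) was as near as Gpr34 (rho 0.78, rank 97), while Cx3cr1 was at rank 2555.

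The share of each gene's UMIs that lay in phagocytes differed between libraries. In the eHCC library labelled WT it was 95.0% of 17333 for Fcrls, 95.4% of 9847 for Tmem119, 93.8% of 23808 for Cx3cr1, 91.4% of 3657 for P2ry12, 84.5% of 4495 for Gpr34 and 87.1% of 7976 for Olfml3. In premalignant liver most UMIs of several genes lay elsewhere. Of the 30 and 19 Fcrls UMIs in the premalignant libraries labelled KO and WT, 17 and 14 lay in one T and NK cluster (cluster 9, with Il4, Cxcr6 and Cd40lg). Its Fcrls level was 6.05, 6.65, 5.84 and 6.24 CPM in the premalignant KO, premalignant WT, eHCC KO and eHCC WT libraries, from 5 to 17 UMIs each, which do not differ beyond counting error. In the eHCC library labelled WT this was about the level given above for T-like cells. Free RNA and the cluster's own Fcrls cannot be told apart in that library. Gpr34 was also in that cluster, at 27.4, 45.1, 14.01 and 35.1 CPM, and T and NK cells held 75.9% and 69.0% of the premalignant Gpr34 UMIs.

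**Figure D4:**
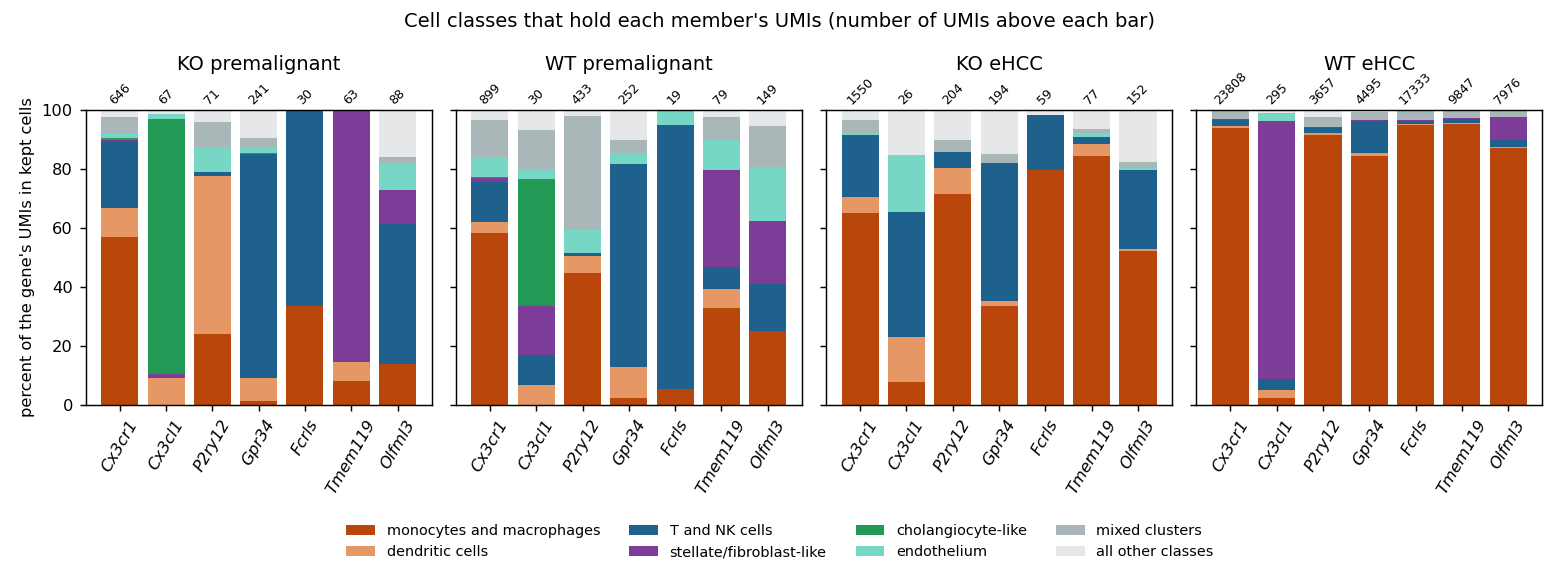
Percent of each gene's UMIs in kept cells that lay in each group of cell classes, with 1 panel per library and the number of UMIs above each bar. Phagocytes hold 95.0% of Fcrls in the eHCC library labelled WT, whereas Cx3cl1 has its largest share in cholangiocyte-like cells in premalignant liver and in stellate or fibroblast-like cells in the eHCC library labelled WT.

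Stromal and other cells also held UMIs of some of the genes. Tmem119 was at 94.1 CPM (54 UMIs, 56 cells) and 57.6 CPM (26 UMIs, 25 cells) in stellate or fibroblast-like cells of the premalignant libraries labelled KO and WT, and at 63.3 CPM (59 UMIs, 46 cells) in the eHCC library labelled WT. That is 85.7% of all Tmem119 UMIs in the premalignant library labelled KO. The cells came from cluster 41 (Col1a1, Col1a2), with 31, 16 and 46 cells in the 3 libraries. Cluster 49 (Igfbp6, Igfbp5) gave the other 25, 9 and 0. The part of this mix in the levels was not tested. Olfml3 was at 17.4, 70.9 and 643.9 CPM in the same 3 sets of cells, so in the eHCC library labelled WT it was higher there than in macrophage-like cells (220.5 CPM). Those 46 cells also held 63 Fcrls UMIs (67.6 CPM, in 9 cells), a gene this class had none of in premalignant liver. Phagocytes held nearly all Fcrls UMIs of that eHCC library. Whether the 63 UMIs came from remaining doublets or free RNA was not tested. P2ry12 was in plasmacytoid dendritic-like cells at 26.8, 16.6, 13.3 and 31.0 CPM in the premalignant KO, premalignant WT, eHCC KO and eHCC WT libraries.

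Cx3cr1 outside monocytes and macrophages was highest in type 2 dendritic-like cells, at 145.3, 73.1, 78.3 and 75.4 CPM in the premalignant KO, premalignant WT, eHCC KO and eHCC WT libraries. The eHCC libraries did not differ there beyond counting error (log2 0.05, interval -0.47 to 0.56). In NK or ILC1-like cells it was at 23.4, 16.6, 11.7 and 11.9 CPM. In premalignant endothelium, where 1.57% of 13507 genes were lower under the KO label, Cx3cr1 was the 1 of 3 members lower, with 8 UMIs (0.484 CPM) against 61 UMIs (1.45 CPM).

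Cx3cl1, the fractalkine ligand, was rare in all 4 libraries, with 67 UMIs in the premalignant library labelled KO, 30 in the premalignant library labelled WT, 26 in the eHCC library labelled KO and 295 in the eHCC library labelled WT. Cholangiocyte-like cells, named by markers of the bile duct lining, held 86.6% of the UMIs in the premalignant library labelled KO and 43.3% in the premalignant library labelled WT. These had 58 UMIs (43.2 CPM, interval 32.8 to 55.8, 17 of 53 cells) under the KO label and 13 UMIs (16.2 CPM, interval 8.60 to 27.6, 8 of 48 cells) under the WT label. The log2 ratio was 1.42 (interval 0.53 to 2.41), and after thinning, when 1 cell of each library held the gene, it was -0.14. The cells under the KO and WT labels were 37 and 44 of cluster 43 (Clu, Tm4sf4) and 16 and 4 of cluster 53 (Dmbt1, Spink4). The median depth of these clusters was 10053 and 27037 UMIs. The part of this mix in the ratio was not tested. In the eHCC libraries cholangiocyte-like cells were too few for a value.

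In the eHCC library labelled WT, 258 of the 295 Cx3cl1 UMIs lay in 46 stellate or fibroblast-like cells, 30 of which (65.2%) held it, at 276.9 CPM (interval 244.1 to 312.8). The same class had 1 UMI in 56 cells (1.74 CPM) and 5 UMIs in 25 cells (11.1 CPM) in the premalignant libraries labelled KO and WT. After thinning 9 of 45 cells (20%) of the eHCC library labelled WT and 1 of 25 cells of the premalignant library labelled WT held it, and the median depth was 13792 and 14294 UMIs. Between the libraries labelled WT the level was 25.01-fold higher in eHCC (log2 4.64, interval 3.40 to 6.28). All 46 eHCC cells were of cluster 41, while the 25 premalignant cells were 16 of cluster 41 and 9 of cluster 49. The part of this mix in the ratio was not tested. The top cell held 36 UMIs, 13.95% of the total. The eHCC library labelled KO had under 20 such cells, so the labels could not be compared in eHCC.

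Endothelium, the best known source of fractalkine, held little of it. Sinusoidal endothelium-like cells had 0 Cx3cl1 UMIs in 2211 and 3760 cells of the premalignant libraries, which allows shares of up to 0.136% and 0.0798% of cells with a UMI. All premalignant endothelium had 1 UMI in 2963 cells under the KO label and 1 UMI in 5566 cells under the WT label. Vascular endothelium-like cells had 0.450 and 0.233 CPM in premalignant liver (1 UMI each) and 5.36 CPM (5 UMIs, 63 cells) and 2.66 CPM (7 UMIs, 160 cells) in eHCC under the KO and WT labels. T-like cells, taken as background, had 0, 0.356, 0.317 and 0.283 CPM. Mature dendritic-like cells (Ccr7) had 17.7, 6.17, 7.10 and 18.1 CPM, from 1 to 7 UMIs each. Over 61 pairs of class and library the gene most like Cx3cl1 was Ildr2 (rho 0.64), followed by Wee1, Nav3, Pigyl and Cavin3.

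**Figure D5:**
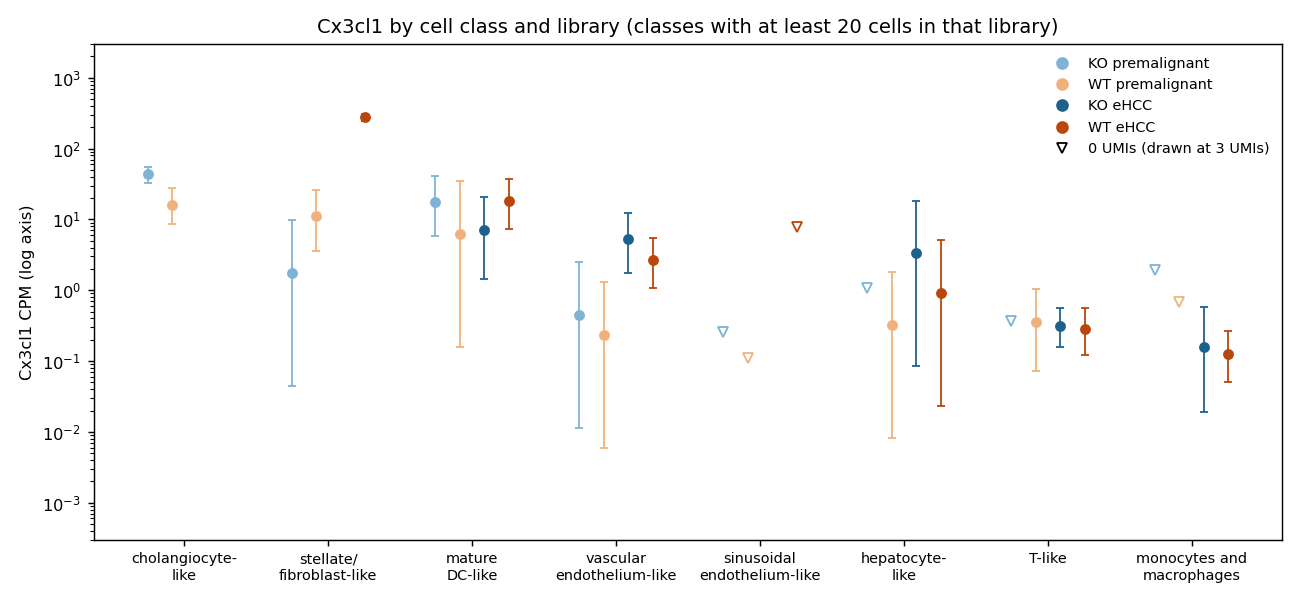
Cx3cl1 level by cell class and library, in CPM on a log axis, for classes with at least 20 cells in that library. Bars are 95% counting intervals and open triangles mark 0 UMIs drawn at 3 UMIs. The highest point is 276.9 CPM in stellate or fibroblast-like cells of the eHCC library labelled WT, and premalignant sinusoidal endothelium-like cells have 0 UMIs.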

How the data were processed

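The authors deposited, per sample, a matrix of raw UMI counts (genes by cell barcodes), which per the file headers came from Cell Ranger 3.0.1. The submitters' processing notes also name bcl2fastq 2.20.0 and the builds GRCh38 and mm10, with no role given. Barcodes with at least 500 UMIs, 300 genes and at most 25% mitochondrial UMIs were kept. Doublets were removed with scrublet at its own threshold in the premalignant libraries (7.63% and 6.75% of barcodes). In the eHCC libraries that threshold marked 0.0335% and 2.12%, so the highest-scoring barcodes were removed at a share of 0.8% per 1000 cells (6.48% and 7.73%).

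Cells were clustered without batch integration (scanpy 1.11.5, Leiden, 2000 variable genes without the members, 40 components, 15 neighbours, resolution 1), and phagocytes and dendritic cells were clustered again. No cell annotation was used from the study. Clusters were called "X-like" from marker lists where at least 3 markers were detected. The naming rule was revised after the data were seen. The members and lists were chosen with earlier results of these data known. Named were all members, up to 4 genes per list with the largest ratio in size among those with at least 50 UMIs, and the 5 genes most like each member in level. Genes beyond this were named after their values were seen, to give counts of few genes in full. Some genes that meet the rule are not reported here.

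CPM is a member's UMIs per 1000000 UMIs of the class, not divided by gene length, with exact Poisson intervals (scipy 1.17.1). Intervals are Clopper-Pearson (exact) for shares and conditional binomial (exact) for ratios. Shares were also taken after thinning each cell to 1000 UMIs, leaving out shallower cells. A count of 0 was bounded by 3 UMIs. The ratio calculation was checked on simulated data. Symbols and sequences come from RefSeq (GRCm38.p6) and gene positions from GENCODE. Promoters of Tmem119 and Gpr34 were not used here.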

Additional observations from a re-analysis of the deposited data

Results flagged for a closer look

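Fcrls and Cx3cr1 moved in opposite directions between the labels in the 2 stages, and neither difference between stages was tested. Over monocytes and macrophages, the log2 ratio of the KO over the WT label was 4.84 for Fcrls in premalignant liver, where it rests on 10 UMIs in 1 cell against 1 UMI, and -6.33 in eHCC. For Cx3cr1 it was 1.02 in premalignant liver, and -0.24 there without Kupffer-like cells, and -2.35 in eHCC.

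From premalignant liver to eHCC, Cx3cr1 was lower between the libraries labelled KO (log2 -1.58) and higher between the libraries labelled WT (1.78). Without Kupffer-like cells these values were -1.68 and 0.42. The difference between the labels was not tested.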

How the results depend on the processing

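No paired analysis was possible because each group has 1 library. For the same reason no library could be left out, and all values carry counting error only. The direction of the Fcrls and Cx3cr1 ratios between the eHCC libraries held under each of the 11 alternatives run for each. Their sizes moved with a separate clustering of every library (-6.91 and -2.62), when all kept cells replaced the class (-7.78 and -3.52), and when only clusters shared by both libraries were used (-5.15 and -1.59). The shared clusters were pooled, and each library's cells were spread differently over them. Thinning moved Cx3cr1 to -2.20. The median of the homeostatic microglia list was -1.86 over all kept cells and otherwise ran from -1.11 to -0.55. The premalignant endothelial Cx3cl1 ratio (1.35, from 1 UMI in each library) ran from 0.715 to 1.99, and gave no value after thinning or with separate clustering.

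Some values turned direction. Premalignant Cx3cr1 between the labels was -0.37 in shared clusters and -0.24 without Kupffer-like cells. Cx3cr1 in eHCC over premalignant liver was -0.16 between the libraries labelled WT in shared clusters, and 0.57 between the libraries labelled KO over all kept cells. Cx3cl1 in premalignant cholangiocyte-like cells was -0.14 after thinning. The cause was not tested. Shared clusters, leaving out Kupffer-like cells, leaving out P18, adding mixed barcodes and leaving out the top cell were chosen after seeing the data. Cx3cl1 and premalignant Fcrls, Gpr34 and Tmem119 rest on so few UMIs that depth limits what can be said of them.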
